A study of Mus musculus with 4 samples.

Results

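In the uninjured mouse spinal cord, 288 of 3752 gated astrocytes carried 3 or more UMIs (unique molecular identifiers, 1 per captured transcript) of Nefl, Nefm and Snap25. They are called neuron-transcript astrocytes here. Nefl and Nefm encode the light and medium neurofilament subunits of axons, and Snap25 encodes a SNARE protein of synaptic vesicle release. The cells were chosen by these counts, so the levels of the 3 genes describe the choice and are no finding. The gate asked for a UMI in at least 2 of the 4 astrocyte genes Aqp4 (water channel), Slc1a2 (glutamate transporter), Gja1 (gap junction protein) and Aldh1l1 (folate enzyme). It also asked for no UMI of Cldn5, Pdgfra or Col3a1, and at most 1 UMI of C1qa, C1qb and C1qc together. The comparison cells were 2532 gated astrocytes with 0 UMIs of the 3 neuronal genes, called neuron-free for this alone, and 932 with 1 to 2 UMIs lay between them. The whole series held 5038 cells after the study's filter of more than 500 and fewer than 50000 gene UMIs.

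The cells came from mice in which Cre recombinase, driven by Cx30 (a gap junction gene of astrocytes) and induced by tamoxifen, switched on tdTomato. The mice received a pool of enhancer viruses in the blood and were left uninjured or sampled 3 days after a contusion injury (3 d.p.i.), and both conditions thus carried the reporter and the viruses. Segments of 5 mm at the injury level or its uninjured match were dissociated with papain, and tdTomato+ whole cells were sorted and run on a 3′ droplet assay. Each of the 2 conditions was 1 library of pooled animals, so nothing below has a replicate check, the conditions could not be tested against each other, and no p-value is given. The series describes 1 to 2 animals of each sex per condition, yet the uninjured library held 2 cells scored female by Xist against 2770 scored male by Y-linked genes, and 0 against 208 among neuron-transcript astrocytes. In the injured library 250 cells scored female and 315 male.

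Neurofilaments fill axons and set their calibre, and messenger RNAs of many cytoskeletal and synaptic proteins are present in axons as well as in the cell body. Astrocytes touch synapses and nodes of Ranvier with fine processes, and they can engulf pieces of neurons and myelin. Single-cell counts also hold free RNA from broken cells and droplets with more than 1 cell or with attached fragments. What brought the neuronal transcripts into these droplets was not tested, and the values below describe the cells without assigning a source.

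The 3 genes lay in the genome build GRCm38 on chromosome 14 from 68083863 to 68089095 (Nefl, plus strand), on chromosome 14 from 68082590 to 68124846 (Nefm, minus strand) and on chromosome 2 from 136713453 to 136782428 (Snap25, plus strand). All are annotated as protein-coding. The annotated span of Nefl lies inside that of Nefm on the opposite strand, and the sources used here do not give whether reads were counted by strand. Of 2 further genes used as markers of these cells, Stmn3 lies on chromosome 2 from 181306459 to 181314500 and Ptgds on chromosome 2 from 25466709 to 25470046, both on the minus strand.

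The number of neuronal UMIs fell off smoothly from cell to cell, with no gap at the threshold of 3. There were 2532 cells at 0, 675 at 1, 257 at 2, 115 at 3, 63 at 4 and 36 at 5 UMIs. Just outside the threshold the 257 cells with 2 UMIs had a median of 4070.0 gene UMIs, and just inside it the 115 cells with 3 UMIs had 4669. Neuron-transcript astrocytes held a median of 4 and at most 15 of these UMIs, and 8 of them reached 10. The 29 cells with most held 20.5% of all 1332 UMIs, a spread that the lower limit of 3 per cell partly sets. All 3 genes were seen in 107 cells (37.2%), 2 of them in 156 and 1 alone in 25. Nefl was present in 227 cells with at most 9 UMIs, Nefm in 210 with at most 7, and Snap25 in 221 with at most 7.

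**Figure D1:**
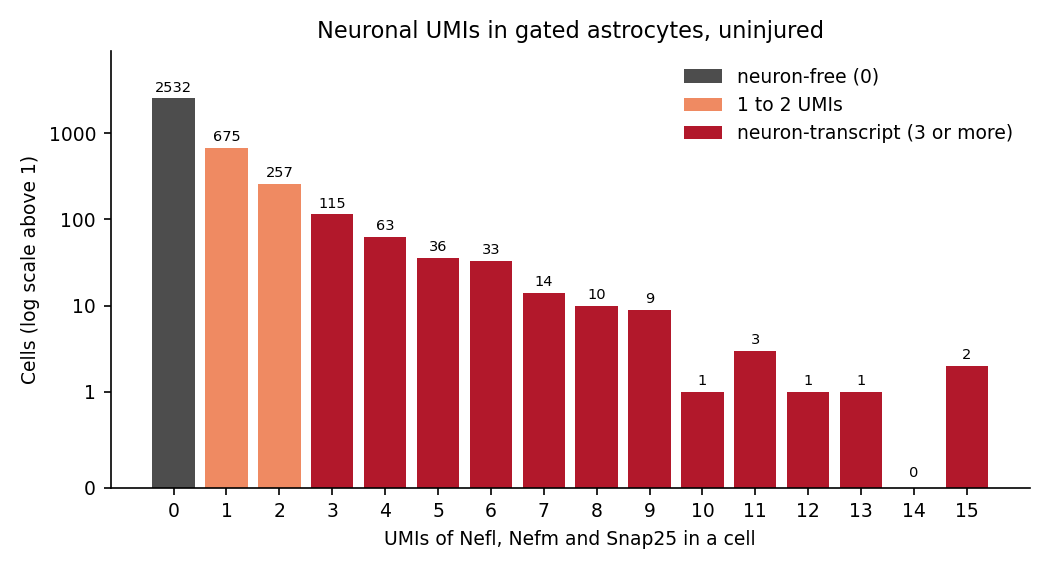
Number of uninjured gated astrocytes (vertical axis, log scale above 1) by their UMIs of Nefl, Nefm and Snap25 together (horizontal axis). Cell numbers fall from 2532 at 0 UMIs over 257 at 2 and 115 at 3 to 2 cells at 15, with no gap between the groups.

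Astrocyte genes stood at similar levels in neuron-transcript and neuron-free astrocytes. The 4 gate genes were used to choose both groups, so their levels are a description only. Slc1a2 stood at 4504 CPM (UMIs per 1000000 gene UMIs, summed over the cells of a group) against 4673 in neuron-free astrocytes, and Aqp4 at 1328 against 1436. Gja1 was at 1293 against 1475 CPM and Aldh1l1 at 191 against 188. Of the 22 astrocyte identity genes, all of which entered the comparison, 0 differed 2-fold in either direction, and their median log2 ratio was -0.06. Of all genes tested 1.39% were 2-fold higher and 0.624% lower, so the count of 0 alone does not set the list apart. Apoe, a lipid carrier, was at 7679 against 8045 CPM. Slc1a3, the other glutamate transporter of astrocytes, was the lowest of the list at a log2 ratio of -0.57 (195 against 290 CPM), and Mt3, a metallothionein, was the highest at 0.33. All 4 gate genes were seen in 54.2% of neuron-transcript and 42.1% of neuron-free astrocytes, at median depths of 4942 and 3233 gene UMIs.

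The reporter and the virus readout lay close in both groups. tdTomato-WPRE stood at 422 CPM in neuron-transcript and 427 CPM in neuron-free astrocytes, a ratio of 0.989 with a 95% interval of 0.906 to 1.08 that covers counting error only. The barcode of the control astrocyte enhancer A5 had 70 UMIs (48.4 CPM of gene UMIs) against 543 (59.3 CPM), a ratio of 0.816 (0.627 to 1.05). No barcode of another enhancer had a UMI in the 288 cells. The doublet score of Scrublet had a median of 0.0880 in neuron-transcript and 0.0833 in neuron-free astrocytes, and its highest values were 0.287 and 0.455. Scrublet builds its simulated doublets from the cells of the library, of which only 3 passed a neuron-like gate (below). Its scores are thus no measure of droplets that hold an astrocyte and a neuron.

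Beyond the 3 genes of the choice, many more neuronal genes were higher in the neuron-transcript astrocytes. The 105 genes of 11 neuronal lists that exclude the 3 genes summed to 5940.4 CPM against 2834 CPM, a ratio of 2.10 (2.05 to 2.15), and the cells with 1 to 2 UMIs lay between at 3738 CPM. Per cell this sum ran from 2419 CPM at the 5th percentile over a median of 5896 to 14687 at the 95th, and from 1071 over 2705 to 5488 in neuron-free astrocytes, so the groups overlapped. Including the 3 genes, the neuronal lists made up 0.686% of the UMIs of neuron-transcript astrocytes, a median of 32 UMIs per cell. The sum was higher in cells with more UMIs of the choosing genes, at 5465 CPM in cells with 3 to 4, 6351 CPM with 5 to 9 and 8771 CPM in the 8 cells with 10 or more.

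Across all genes with at least 100 UMIs over both groups, 129 of 9298 (1.39%) were 2-fold or more higher in neuron-transcript astrocytes and 58 (0.624%) were 2-fold or more lower. The median log2 ratio of all genes tested was -0.0017 (1 CPM added to both sides), which scaling to CPM holds near 0. Of the 129 genes, 32 belonged to the neuronal lists and 5 to the oligodendrocyte list. Of the 49 neuronal list genes that passed the filter on low counts, 32 were 2-fold higher and 0 were 2-fold lower, against the 1.39% and 0.624% of all genes. The remaining list genes had too few UMIs to be counted, among them every gene of the transmitter identity lists.

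By median log2 ratio cytoskeletal and axonal genes differed most, at 2.63. Of 14 tested, 10 were 2-fold higher, against 1.39% of all genes. Nefl and Nefm, which chose the cells, are genes of the same kind, so this rank is partly set by the choice. As a sum the list had a ratio of 2.12, below the 4.37 of the neuronal nuclear non-coding RNAs. Nefh, the heavy neurofilament subunit, was the highest of all genes, at 114 CPM in neuron-transcript and 11.9 CPM in neuron-free astrocytes (log2 ratio 3.16, ratio interval 7.48 to 12.3). Cells with 1 to 2 UMIs of the 3 genes again lay between, at 30.1 CPM of Nefh. Uchl1, a neuronal ubiquitin hydrolase, stood at 208 against 24.9 CPM (log2 ratio 3.01) and was seen in 163 of the 288 cells. Tubb3, the neuronal beta-tubulin, was at 69.8 against 7.98 CPM, and Stmn3, a stathmin of axons, at 169 against 26.1 CPM. Map1b, a microtubule protein of axons, was at a log2 ratio of 2.85, and Ina, an intermediate filament of neurons, at 2.69. The levels of Mapt, Map2 and Tuba4a were closer, with log2 ratios of 0.15, -0.18 and 0.72. Map2, the microtubule protein of dendrites, was at 436 CPM in the neuron-free astrocytes already.

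Synaptic vesicle genes were 2-fold higher for 8 of 13 tested, against 1.39% of all genes, with a median log2 ratio of 1.37. Cplx1, a complexin that clamps vesicle fusion, stood at 87.8 against 10.5 CPM (log2 ratio 2.95). Rab3a, a vesicle GTPase, was at 142 against 31.8 CPM, and Syp, synaptophysin, at 42.9 against 9.07 CPM. Syn2, a synapsin, was level at 270.3 against 281 CPM. Syt1, the calcium sensor of release and a marker of neuronal cell bodies in sequencing data, stood at 15.2 against 4.04 CPM. Its ratio of 3.76 (2.11 to 6.55) rests on 22 UMIs in the 288 cells and 37 in the 2532 neuron-free cells. These were too few for the gene count above.

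Pumps, channels and metabolic genes of neurons followed. Among channels and pumps, 5 of 8 tested were 2-fold higher, against 1.39% of all genes. They included Atp1b1, a sodium pump subunit, at 184 against 30 CPM. Scn8a, a sodium channel of nodes, was at 72.6 against 62.4 CPM. Among metabolic and calcium-binding genes, 6 of 9 tested were 2-fold higher, against the same 1.39%. These included Vsnl1, a calcium sensor (log2 ratio 2.79), and Pvalb, a calcium buffer of fast-spiking and sensory neurons (2.49). Pcsk1n, a peptide-processing inhibitor, was just above 2-fold at 344 against 164 CPM. Meg3 and Snhg11, non-coding RNAs retained in neuronal nuclei, were at 69.8 against 14.6 CPM and 60.8 against 14.2 CPM.

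The 15 genes with the highest ratios included Nefh, Uchl1, Tubb3, Cplx1, Map1b, Sult4a1, Vsnl1, Pcp4, Resp18, Bend6, Eef1a2, Ina, Stmn2 and Stmn3, with log2 ratios from 3.16 down to 2.65. Of the 15, 10 were in the neuronal lists. Eef1a2 encodes the translation elongation factor subunit of neurons and muscle (86.4 against 12.4 CPM), and Pcp4 a small regulator of calcium signalling in neurons (60.2 against 7.98 CPM).

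**Figure D2:**
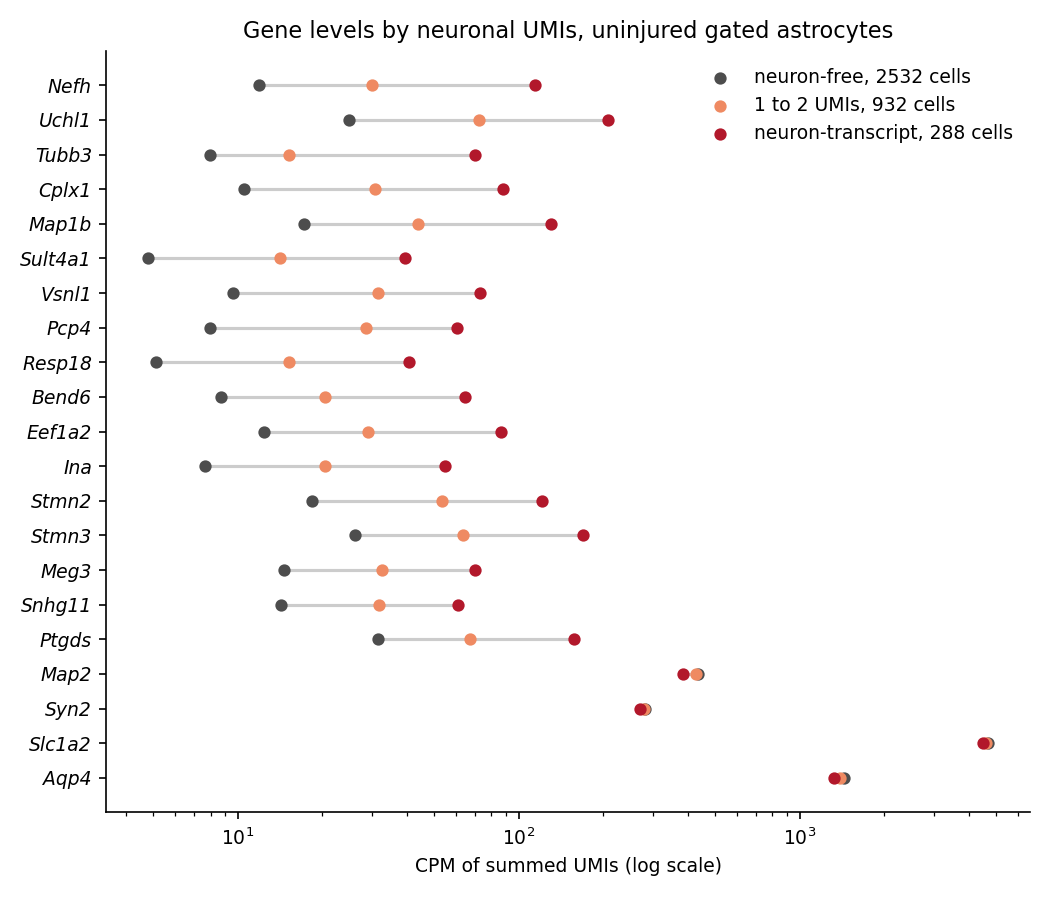
Level of 14 of the 15 genes with the highest ratios and of 7 other genes in CPM of summed UMIs (log scale), in neuron-free astrocytes (grey), cells with 1 to 2 UMIs of Nefl, Nefm and Snap25 (orange) and neuron-transcript astrocytes (red). The neuronal genes step up from grey over orange to red, from 11.9 over 30.1 to 114 CPM for Nefh, while Slc1a2, Aqp4, Map2 and Syn2 lie together.

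Genes that mark a neuron's transmitter were sparse. Slc17a6, the vesicular glutamate transporter of spinal neurons, had 32 UMIs in 29 of the 288 cells (10.1%) and 27 UMIs in 26 of the 2532 neuron-free cells (1.03%). A UMI of the inhibitory genes Gad1, Gad2, Slc32a1 or Slc6a5 was found in 55 cells (19.1%) against 93 (3.67%), and 7 cells held both kinds. The 5 cholinergic and motor neuron genes together reached 6.91 CPM and the 7 fibre and sensory neuron genes 2.77 CPM, against 1.42 and 3.50 CPM in neuron-free astrocytes. Transcripts of excitatory and of inhibitory neurons were thus both present over the group, and in most cells neither was seen.

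Myelin transcripts were higher in the same cells. Of the 7 tested oligodendrocyte genes, 5 were 2-fold higher, against 1.39% of all genes, and the 13 genes together stood at 956 against 369 CPM, a ratio of 2.59 (2.43 to 2.76). Ptgds, a prostaglandin synthase that is abundant in oligodendrocytes and meninges, was at 158 CPM against 67.0 in cells with 1 to 2 UMIs and 31.5 in neuron-free astrocytes (log2 ratio 2.29). Trf, the iron carrier, was at 60.2 against 14.0 CPM and Mal, a myelin membrane protein, at 53.2 against 16.7 CPM. Mbp and Cnp, further myelin genes, were below 2-fold at log2 ratios of 0.90 and 0.43. At 1 depth of 1000 gene UMIs per cell, which left out 1 and 43 cells, Ptgds was seen in 13.2% of neuron-transcript and 2.73% of neuron-free astrocytes (41.0% and 8.53% as counted).

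Markers of other cell types differed less or were rare. The 10 microglial genes stood at 120.3 against 93.9 CPM, the 7 ependymal genes at 69.8 against 64.9 CPM and the 7 fibroblast and meningeal genes at 64.3 against 89.3 CPM. The C1q genes, Cldn5, Pdgfra and Col3a1 belong to the gate and are low in both groups by choice. The 6 endothelial genes were rare, at 8.30 against 3.39 CPM, a ratio of 2.45 (1.15 to 4.91) close to that of the oligodendrocyte list. The 4 Schwann cell genes were rare too, at 3.46 against 0.98 CPM (3.52, 0.925 to 11.7). The 6 oligodendrocyte precursor genes stood at 619 against 713 CPM and the 6 mural genes at 70.5 against 46.5 CPM (1.52, 1.21 to 1.88). The part of RNA from these cells in the differences was not tested. Among the neuronal lists, the 13 neuropeptide genes stood at 69.8 against 33.0 CPM, and the 8 neuronal transcription and RNA binding factors at 156 against 59.3 CPM.

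Among astrocyte genes, those on neuronal contact and engulfment were level or lower as sums. The phagocytic genes stood at 1256 against 1356 CPM and the genes that face synapses at 23786 against 28036 CPM. Of the 10 phagocytic genes tested, which include the receptors Mertk and Megf10, 0 differed 2-fold, with log2 ratios from -0.44 to 0.19. Of all genes 1.39% were higher and 0.624% lower. At these shares most lists this short would hold none, so the count does not set the list apart. Of 20 genes that face synapses, 0 were 2-fold higher and 1, Gabbr2, a GABA-B receptor subunit, was 2-fold lower at 29.7 against 79.9 CPM. Nlgn1, a synaptic adhesion gene, stood at 1050.2 against 1551 CPM. Gfap, the filament gene of reactive astrocytes, was at 84.3 against 66.7 CPM. Of the 3 tested reactive genes 0 differed 2-fold, a count that the shares of all genes would give too. Of 14 early response genes 7 were tested, where 1.39% of all genes were 2-fold higher and 0.624% lower. Of these the chaperone Hsp90aa1 was 2-fold higher (351 against 156 CPM) and Fos 2-fold lower (13.8 against 31.8 CPM).

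Of the 7 genes that mark other uninjured astrocyte states, 1, Hes5, was 2-fold lower and 0 were 2-fold higher. The shares of all genes were 0.624% lower and 1.39% higher. Hes5, a Notch target, had 3 UMIs in 3 of the 288 cells and 178 UMIs in 115 of the 2532 neuron-free cells (2.07 against 19.4 CPM, log2 ratio -2.73, ratio interval 0.0218 to 0.317). At 1000 gene UMIs per cell it was seen in 1 of 287 cells (0.348%, 0.00882 to 1.93%) against 51 of 2489 (2.05%, 1.53 to 2.69%), and these intervals overlap. Hopx stood at 65.0 against 118 CPM (log2 ratio -0.85). Gria1, an AMPA receptor subunit, and Shisa9, its auxiliary protein, were at log2 ratios of -0.77 and -0.81. Igfbp2, an insulin-like growth factor binding protein, was at 367 against 257 CPM (0.51), with Hsd11b1 at 0.26 and Chil1 at 0.29. When the cells were chosen by other neuronal genes (below), all 3 of these turned, to log2 ratios of -0.28 for Igfbp2, -0.15 for Hsd11b1 and -0.12 for Chil1. Hes5 then stood at -2.71, from 1 UMI in 119 cells against 173 in 2895 (ratio interval 0.00253 to 0.568).

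The other 14 of the 15 genes with the lowest ratios were Hba-a1, Hbb-bs, Hba-a2, Hbb-bt, Gm4876, Grm8, Hmox1, Gm17066, St6galnac3, Khnyn, Vmn2r57, Cenpp, Prkg1 and Gabbr2. The 4 haemoglobin genes rested on 1 neuron-free cell with 5648 of the 5663 haemoglobin UMIs, and without it Hbb-bs moved from a log2 ratio of -6.98 to 0.26. Of Hmox1, 1 neuron-free cell held 59 of 99 UMIs. Grm8, a glutamate receptor, was at 8.99 against 37.5 CPM and Prkg1, a kinase, at 28.3 against 79.8 CPM. The 58 lower genes had a median of 8 UMIs in the neuron-transcript cells, and 11 of them were also 2-fold lower when only cells with 2000 to 5000 gene UMIs were compared.

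**Figure D3:**
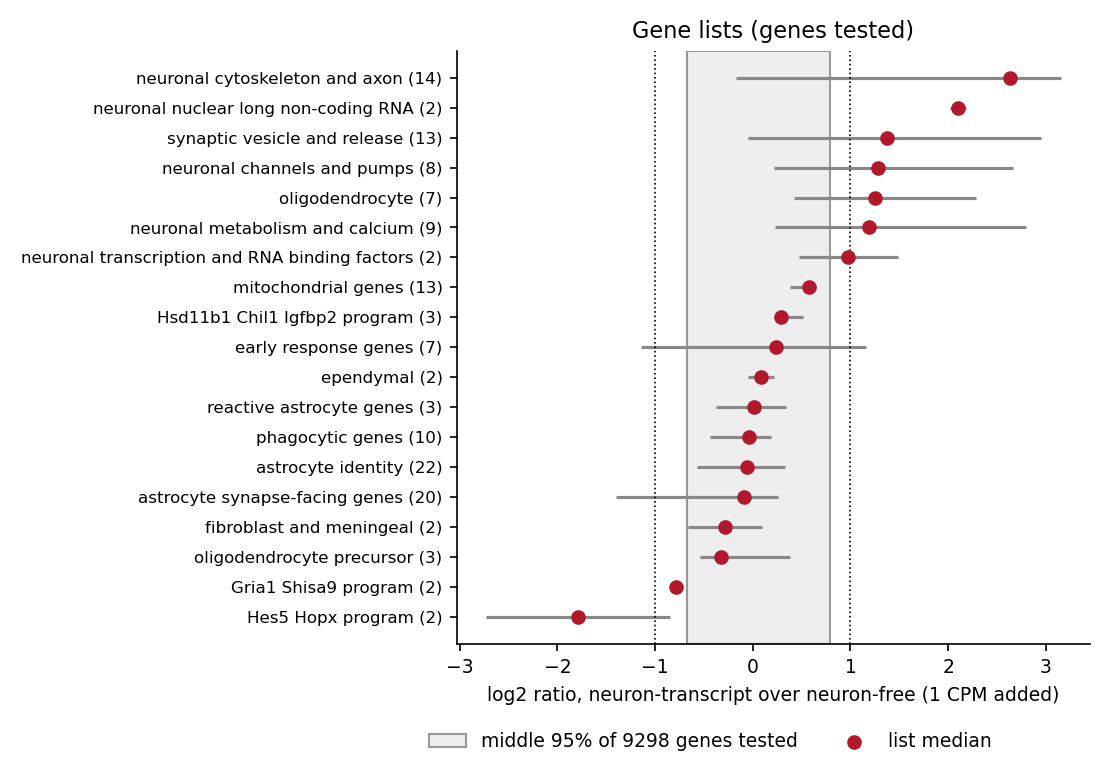
Median log2 ratio (points) and range (lines) of neuron-transcript over neuron-free astrocytes for gene lists with 2 or more genes tested, with the number tested in parentheses. The neuronal and oligodendrocyte lists lie to the right, led by the cytoskeletal list at 2.63, the astrocyte identity, phagocytic and reactive lists near 0, and the Hes5 and Hopx pair to the left. The grey band holds the middle 95% of all genes tested, and dotted lines mark 2-fold.

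The co-occurrence of neuronal genes was also seen when other genes chose the cells. With Stmn3, Stmn2 and Syt1 in place of Nefl, Nefm and Snap25, 119 gated astrocytes had 3 or more UMIs and 2895 had none. In these 119 cells Nefl was at 239 against 36.1 CPM (ratio 6.63, 5.44 to 8.05), Nefm at 190.3 against 29.5 CPM (6.45, 5.17 to 8.01) and Snap25 at 272 against 41.2 CPM (6.61, 5.49 to 7.92). Ptgds was at 133 against 34.8 CPM. Nefh, the highest gene in the main comparison, had a ratio of 6.64 (4.92 to 8.86) here, and Cplx1 one of 9.41 (6.98 to 12.6). Of the 119 cells, 62 (52.1%) were also neuron-transcript astrocytes, against 3.32% of the 2895 cells with none. These 62 are 21.5% of all neuron-transcript astrocytes. The 119 and 2895 cells had median depths of 4986 and 3322 gene UMIs, and both choices by count favour deep cells.

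Mitochondrial transcripts and depth were higher in the neuron-transcript astrocytes, and Malat1 was lower. A count of 3 or more UMIs is reached more often in deep cells, and a count of 0 more often in shallow ones. The higher depth of the neuron-transcript astrocytes and their larger share among deep cells are thus partly set by the choice. Neuron-transcript astrocytes held a median of 4942 gene UMIs and 2287 genes, against 3233 UMIs and 1630 genes in neuron-free astrocytes. Their share of gated astrocytes was 5.92% (3.65 to 8.99%) at 500 to 1500 gene UMIs, 3.99% (2.71 to 5.65%) at 1500 to 2500 and 4.88% (3.49 to 6.60%) at 2500 to 3500. It was 5.94% (4.54 to 7.61%) at 3500 to 5000 gene UMIs, 14.8% (12.3 to 17.7%) at 5000 to 8000 and 20.5% (14.7 to 27.3%) above. At 3500 to 5000 gene UMIs they held 32.2 UMIs of the 4 gate genes per cell against 33.2 in neuron-free astrocytes, and at 5000 to 8000 UMIs 47.1 against 46.1. Mitochondrial genes made up 8.95% of their UMIs against 5.97%, and all 13 mitochondrial genes were higher, with log2 ratios from 0.38 to 0.65. Malat1, a non-coding RNA retained in nuclei, was at 61794 against 77751 CPM. The mitochondrial share was higher and Malat1 lower in each of 6 depth classes. The part of depth, mitochondrial RNA and Malat1 in the gene differences was not tested.

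The neuron-transcript astrocytes were not uniform in these measures. The 50 cells under 2500 gene UMIs held 20.1% mitochondrial UMIs and 32302 CPM of Malat1, against 8.62% and 55015 CPM in neuron-free cells under the same limit. Their held-out neuronal genes stood at 10015 CPM against 3086 CPM, and tdTomato-WPRE at 272 against 477 CPM, a ratio of 0.570 (0.359 to 0.863). In a shallow cell 3 UMIs are a larger part of the total, so the choice itself asks for a higher neuronal share there. The 238 deeper cells held 8.25% mitochondrial UMIs against 5.47%, 5687 CPM of the held-out genes against 2786 CPM, and tdTomato-WPRE at 432 against 418 CPM. Among cells of 2500 gene UMIs or more, 108 genes were 2-fold higher, of which 103 were among the 129, and without cells over 15% mitochondrial UMIs 114 were, of which 109 were. Among cells of 2000 to 5000 gene UMIs 115 genes were 2-fold higher, of which 56 were among the 129, and among cells with an Aldh1l1 UMI 77 were, of which 67 were.

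**Figure D4:**
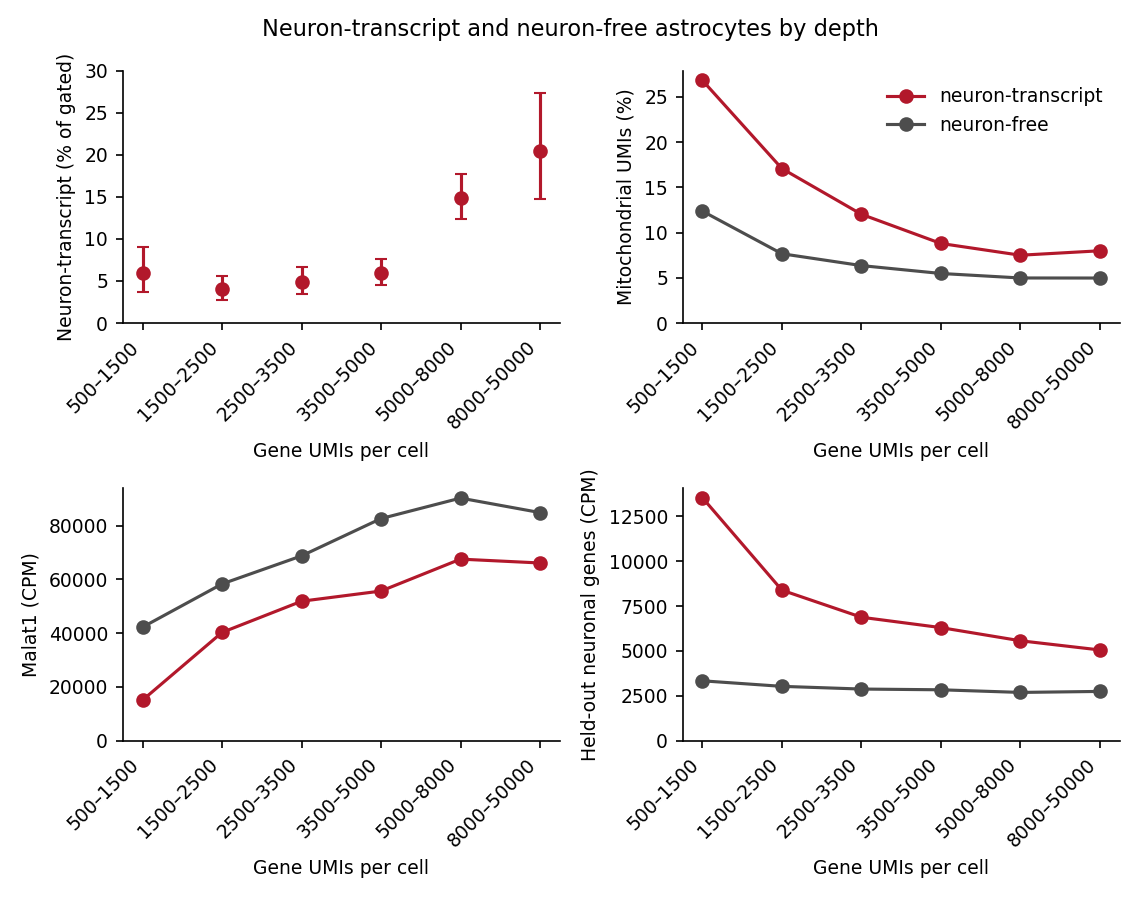
Share of gated astrocytes that were neuron-transcript astrocytes (percent, with exact 95% intervals), mitochondrial UMIs (percent), Malat1 (CPM) and the held-out neuronal genes (CPM) by gene UMIs per cell, for neuron-transcript (red) and neuron-free astrocytes (grey). In all 6 depth classes red lies above grey for mitochondrial UMIs and the held-out genes and below it for Malat1, and the share lies between 3.99% and 5.94% in the 4 classes below 5000 UMIs and reaches 20.5% above 8000.

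The same 3 genes were then read in other cell classes of the library. Each class was set by its own markers with at most 1 astrocyte gate gene. This limit favours droplets with little astrocyte RNA, so the classes are no even measure of free RNA. The 4 gate genes stood at 91.0 CPM in microglia-, fibroblast- and endothelial-like cells together, against 7691 CPM in gated astrocytes. Of gated astrocytes 32.5% (31.0 to 34.0%) had a UMI of Nefl, Nefm or Snap25 at a median of 3481 gene UMIs. Of 28 microglia-like cells 1 had one (3.57%, 0.0904 to 18.3%), of 48 fibroblast-like cells 2 (4.17%, 0.509 to 14.3%) and of 25 endothelial-like cells 0, a count compatible with a share as high as 12%. Together these 101 cells reached 2.97% (0.617 to 8.44%) at a median of 3177 gene UMIs, and 0 of them had 3 UMIs. Their 4 UMIs gave 10.7 CPM, 6.12% of the level in gated astrocytes. Of 32 oligodendrocyte precursor-like cells 10 had a UMI, at a share whose interval (16.1 to 50%) spans that of astrocytes, mostly of Snap25, since Nefl and Nefm had 2 of their 17 UMIs. Of 17 ependymal-like cells 2 had one (11.8%, 1.46 to 36.4%). At 1000 gene UMIs per cell the share was 14.6% (13.5 to 15.8%) in gated astrocytes and 1.02% (0.0258 to 5.55%) in the microglia-, fibroblast- and endothelial-like cells together.

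**Figure D5:**
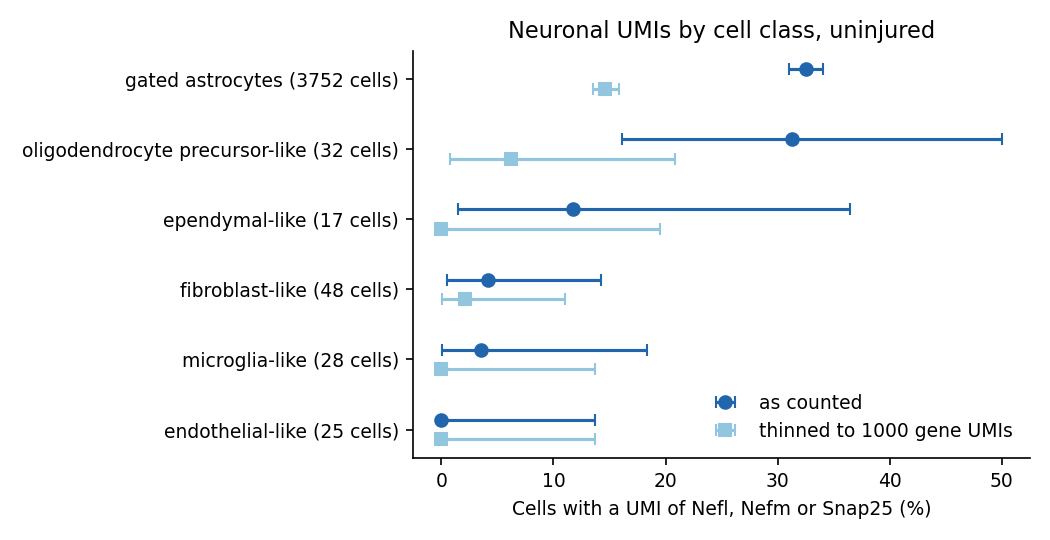
Share of uninjured cells with a UMI of Nefl, Nefm or Snap25 (percent) by cell class, as counted (circles) and after each cell was thinned to 1000 gene UMIs (squares), with exact 95% intervals that cover counting error only. Gated astrocytes stand at 32.5% as counted, above the intervals of fibroblast-, microglia- and endothelial-like cells, while the intervals of oligodendrocyte precursor- and ependymal-like cells span it.

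Neuronal transcripts were also read in droplets with few astrocyte genes. Only 3 cells passed the neuron-like gate (at least 4 of Meg3, Snhg11, Syt1, Stmn2, Celf4 and Elavl4, at most 1 astrocyte gate gene), and they held 1 UMI of Nefl and 0 of Nefm. They had 240 Meg3 UMIs to 16 of Stmn3, a ratio of 15 (9.05 to 26.7), whereas neuron-transcript astrocytes had 101 to 245, a ratio of 0.412 (0.324 to 0.522). Syt1 to Stmn3 was 6.81 (4.01 to 12.3) and 0.0898 (0.0553 to 0.139) in the same order. Meg3 and Syt1 belong to the gate of the 3 cells, so their high ratios there follow from the choice. The 3 cells are not a sample of the cord's neurons, and 1 of them held 200 of the 240 Meg3 UMIs, so the intervals understate the error. A further 36 cells had 3 or more UMIs of Nefl, Nefm and Snap25 with at most 1 astrocyte gate gene, and this group was chosen after the data were seen. They were shallow, with a median of 1217 gene UMIs, held 38.4% mitochondrial UMIs and 19702 CPM of Malat1, and had tdTomato-WPRE at 101 CPM.

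The 36 cells were chosen by the same 3 genes as the neuron-transcript astrocytes, so likeness between them is partly set by the choice. Meg3 to Stmn3 was 13 to 26 UMIs in the 36 cells, a ratio of 0.50 (0.236 to 1.01), whose interval holds the values of both the neuron-transcript and the neuron-free astrocytes (0.412 and 0.561). Above the neuron-free level, Stmn3, Uchl1, Nefh, Meg3 and Ptgds in neuron-transcript astrocytes reached 28.9%, 24.1%, 21.7%, 22.4% and 23.7% of the excess in the 36 cells. These shares rest on 13 to 39 UMIs per gene in the 36 cells.

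In the injured library, the same gate gave 392 astrocytes, of which 11 (2.81%, 1.41 to 4.97%) had 3 or more UMIs of the 3 genes, against 7.68% (6.84 to 8.57%) in the uninjured library. A UMI of any of the 3 was found in 14.3% (11.0 to 18.1%) against 32.5%, although the injured cells were deeper, at a median of 5259 against 3481 gene UMIs. Over all gated astrocytes the 3 genes stood at 37.0 CPM after injury and 175 CPM without it. With 1 library each, injury and library cannot be told apart. The 11 injured cells had a median of 10242 gene UMIs (1893 to 44848) against 5514 in the 336 cells with 0 UMIs, so the deepest weigh heavily in their sums. Stmn3 was at 78.8 CPM (12 UMIs) in the 11 cells against 25.5 CPM, and Ptgds at 98.5 (15 UMIs) against 10.7 CPM. The held-out neuronal genes as a whole stood at 4037 against 3876 CPM, a ratio of 1.04 (0.959 to 1.13). Uchl1 (125 against 225 CPM) and Meg3 (6.56 against 178 CPM) were lower in the 11 cells, from 19 and 1 UMIs there. The libraries shared 7 cell barcodes, 0 of them in neuron-transcript astrocytes.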

How the data were processed

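Whole tdTomato+ cells were profiled with the Chromium 3′ v3.1 assay, and the authors deposited raw UMI counts of genes and enhancer barcodes as 1 matrix per condition. Per the file headers Cell Ranger 7.1.0 made these counts; version 8.0.1 and mm10 stand in the submitters' processing notes. The counts were not normalised, and no removal of free RNA or doublets is stated for this experiment. Intervals cover counting error only, since reads of pooled animals in 1 library give no replicate error.

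From these counts, cells were kept above 500 and below 50000 gene UMIs, which left all 4159 uninjured cells (15543460 gene UMIs, median 3343) and 879 of 919 injured cells (8499672 gene UMIs, median 6816). UMIs were summed per group of cells and scaled to CPM. A gene was compared with at least 100 UMIs over both groups and called at a 2-fold ratio, 1 CPM being added to both sides for log2 ratios. The genes of the gate and of the choice were left out of these calls. Shares have exact Clopper-Pearson and ratios exact conditional binomial 95% intervals, and a share of 0 allows up to 3 counts. For shares at equal depth, every cell was reduced to 1000 gene UMIs in 1 random draw. Microglia-like cells had 5 or more UMIs of C1qa, C1qb and C1qc, endothelial-, fibroblast- and oligodendrocyte precursor-like cells 2 or more of Cldn5, Col3a1 and Pdgfra, and ependymal-like cells 3 or more of 5 ependymal genes. Scrublet (scanpy 1.11.5, Python 3.11.15) called 0 of 4159 cells, so only its scores were used. The comparison was tested on simulated data. Gene positions were taken from GENCODE M21 by identifier, which matched 99.8% of 32285 identifiers.

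The cells, gene lists and tests were chosen with earlier results of these data known. The named genes are the genes of the choice and the gate, Stmn3, Ptgds, tdTomato-WPRE and A5, members of the lists by size of level, and the 15 highest and 15 lowest ratios. List members named outside the rule on size of level were chosen after their values were seen, as was the group of 36 cells. Some genes that the rule names are not reported here.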

Additional observations from a re-analysis of the deposited data

How the results depend on the processing

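No paired analysis was possible because every condition rested on 1 library. With 2, 5 or 10 UMIs as the limit the share of neuron-transcript astrocytes was 14.5%, 2.93% and 0.213%, and the log2 ratio of the held-out neuronal genes, 1.07 as reported, was 0.87, 1.22 and 1.63. The share was 5.01% among cells with 2000 to 5000 gene UMIs, 8.94% from 2500 gene UMIs and 9.53% among cells with an Aldh1l1 UMI. The log2 ratio was 1.19 among cells with 2000 to 5000 gene UMIs, 1.03 from 2500 gene UMIs, 1.00 without cells over 15% mitochondrial UMIs, 1.12 without the 5% of cells with the highest Scrublet scores and 1.03 without the 5% of neuron-transcript astrocytes with most UMIs. The 129 genes 2-fold higher became 205 and 1107 at limits of 5 and 10 UMIs, 77 with an Aldh1l1 UMI, and 330 and 37 with a minimum of 30 and 300 UMIs per gene. The 58 genes 2-fold lower became 15, 243 and 2191 at limits of 2, 5 and 10 UMIs, 205 among cells with 2000 to 5000 gene UMIs, 229 with Stmn3, Stmn2 and Syt1 as the choosing genes, 9 with 10 CPM added, and 188 and 15 with a minimum of 30 and 300 UMIs. A limit of 10 leaves 8 cells.

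Of 45 named genes past 2-fold, 40 kept their direction and 28 stayed past 2-fold under all 18 alternatives that gave a value. The exceptions in direction were Cenpp (0.33) and Mag (-2.54) at the limit of 10 UMIs, and Hbb-bs (0.26), Hba-a2 (0.61) and Hbb-bt (0.47) without 1 cell rich in haemoglobin. The limits at 2500 gene UMIs and 15% mitochondrial UMIs and the haemoglobin cell were chosen after seeing the data. Depth limits the transmitter genes and the lower genes, most of which had under 10 UMIs in the neuron-transcript astrocytes.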
